A study of Gossypium hirsutum with 6 samples.

Results

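In leaves of upland cotton (*Gossypium hirsutum*), 280 of 421554 assembled transcripts were at least 2-fold more abundant in the heat-sensitive genotype than in the heat-tolerant one in each of 3 conditions, namely without heat and after 4 and 8 h at 45 °C. They were chosen by the ratio of (sensitive RPKM + 1) to (tolerant RPKM + 1), which had to be 2 or more in all 3 conditions. RPKM is a read count scaled by transcript length and by the reads of the library. The sensitive genotype was Earlistaple 7 and the tolerant one Nan Dan Ba Di Da Hua. Each was represented by a control library at 28 °C, a 4 h library and an 8 h library, all from leaf of seedlings of about 20 days fed with Hoagland's solution, with 1 library per genotype and condition. The labels give 28 °C by day and 22 °C by night, with 14 h of light and 10 h of dark, for all libraries. The labels do not say how many plants went into a library, and the hour at which the control leaves were cut is not given.

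Genotypes of a crop can differ in transcript content because a gene copy is missing from one of them, because the copies differ in regulation, or because their sequences differ enough that reads of one genotype fit the assembled transcript of the other poorly. Upland cotton is an allotetraploid, so many of its genes also exist as related copies from an A and a D subgenome, and an assembler may merge or separate them. A transcript that is higher in one genotype under every condition differs between the genotypes without heat as well as with it. The identifiers come from an assembly, and none (0) was found in the Gossypium_hirsutum_v2.1 reference table of 99454 genes. The transcripts therefore carry no gene names or sequences here, and only 4 of them are given by identifier.

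Values of a genotype are given throughout in the order control, 4 h, 8 h. The values that chose these transcripts are described without a test. The change of the gap with heat has no residual spread to be tested against, since no condition was repeated. An additive model of genotype and condition was not run, because its genotype term is what the rule used, so the heat responses are described without a test as well. With the tolerant control set to 1, read depth was 0.804 and 0.793 after heat in the tolerant genotype, and 1.14, 1.07 and 0.868 across the sensitive libraries. The total number of reads is not known, so no counting interval is given.

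The 3 conditions contributed unequally to the choice. At control 4191 of 129908 transcripts with 1 RPKM or more in either control library were at least 2-fold higher in the sensitive genotype, which is 3.23%. At 4 h the share was 3.2% and at 8 h it was 20.0%, where 35801 transcripts met the limit. The 280 transcripts made up 6.68% of those higher at control, 5.41% of those at 4 h and 0.782% of those at 8 h. Before the 8 h limit was applied, 424 transcripts were higher at both control and 4 h. In the opposite direction, 252 transcripts of 168 components were at least 2-fold higher in the tolerant genotype in all 3 conditions.

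The limit of 2 fell within a run of low values. The transcript at the limit itself had sensitive values of 1.53, 1.22 and 1 RPKM and tolerant values of 0, 0.02 and 0 RPKM. The next inside had smallest ratios of 2.01 each. The nearest outside had smallest ratios of 1.990, 1.99 and 1.987, all at control. One of these was listed at 0 in every tolerant library and missed the limit with 0.99 RPKM in the sensitive control, while it stood at 1.26 and 2.72 RPKM after heat.

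Most of the 280 transcripts were of low abundance even in the sensitive genotype. Their median was 4.62 RPKM in the sensitive control, 3.68 at 4 h and 4.01 at 8 h, with quartiles of 2.16 and 9.36 RPKM at control. The tolerant medians were 0.11, 0.19 and 0.08 RPKM. The mean over the sensitive libraries was below 5 RPKM for 153 transcripts, and 26 were at 10 RPKM or more in all 3. In 247 of the 280 the lowest sensitive value lay above the highest tolerant value across all conditions, which was so for 6.22% of 80118 transcripts at 1 RPKM or more in every sensitive library. This count follows largely from how the transcripts were chosen. In the other 33, heat moved the level by more than the genotypes differed.

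A sizeable part of these transcripts was at or near 0 in the tolerant genotype. There 38 of them, from 32 components, were listed at 0 in all 3 libraries, where a component is a group of transcripts assembled together. A further 27 stayed below 0.1 RPKM in every tolerant library without being at 0 in all of them. Together these 65 transcripts (23.2%) came from 49 components. Another 125 reached 0.1 RPKM in some tolerant library but stayed below 1 RPKM in all, so that 190 of 280 (67.9%) never came to 1 RPKM in the tolerant genotype. Of the remaining 90 transcripts, 68 reached 1 RPKM in some tolerant libraries and 22 did so in all 3. Among the 80118 transcripts at 1 RPKM or more in every sensitive library, 68 were below 0.1 RPKM in every tolerant one, or 0.0849%, and 65 of these are the transcripts described here. Transcripts with such values nearly always meet the rule, so this overlap and the higher share among the 280 follow largely from the choice. The reverse, 1 RPKM or more in every tolerant and below 0.1 RPKM in every sensitive library, was found for 33 of 60584.

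**Figure D1:**
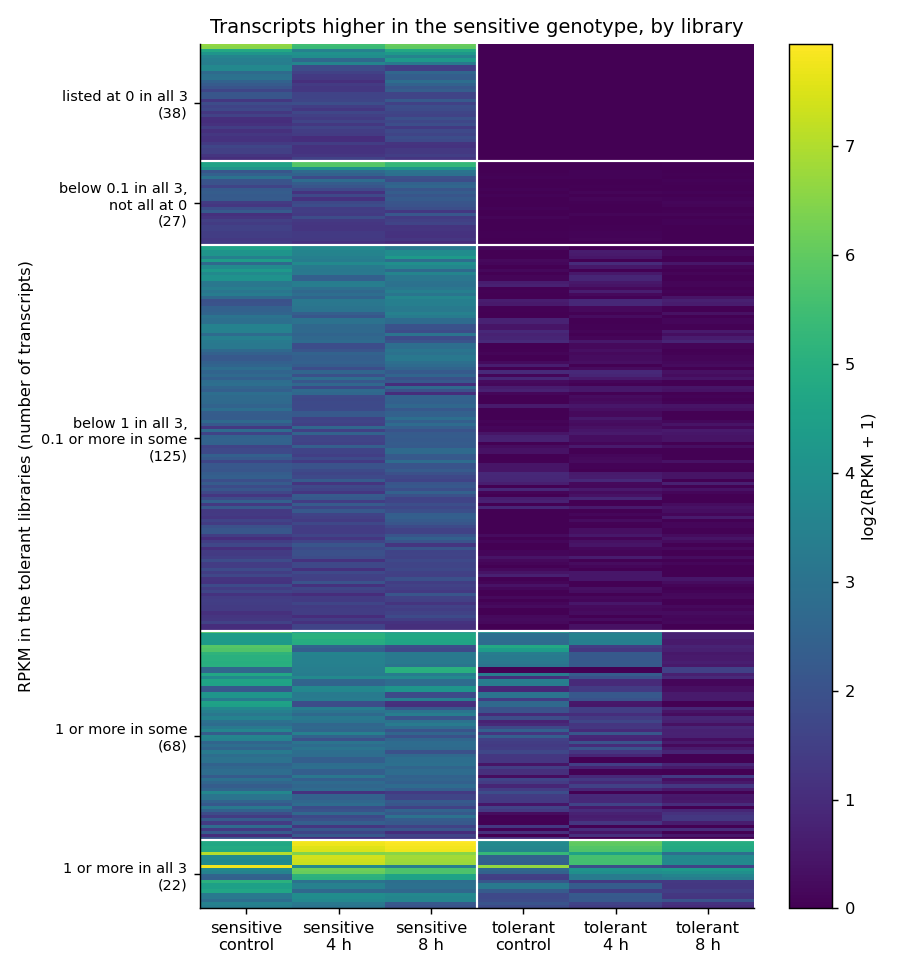
Each row is 1 of the 280 transcripts and each column 1 library, with colour giving log2(RPKM + 1). Rows are grouped by their RPKM in the tolerant libraries and ordered by mean sensitive RPKM within a group. In the upper 3 groups (38, 27 and 125 transcripts) the tolerant libraries stay below 1 RPKM, while the 22 transcripts at the bottom are present in both genotypes.

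The transcripts listed at 0 in the tolerant genotype were mostly weak in the sensitive one. Their sensitive medians were 2.22, 1.81 and 2.57 RPKM. The 22 transcripts present in every tolerant library had sensitive medians of 13.1, 33.1 and 23.2 RPKM, against 4.56, 8.85 and 7.76 RPKM in the tolerant libraries. By the rule a higher tolerant value calls for a higher sensitive one. The lowest sensitive values were 4.56, 5.46 and 3.1 RPKM in these 22 and 1.04, 1.03 and 1.22 RPKM in those listed at 0. Nothing is therefore read from the difference in sensitive level. A transcript of low abundance comes out at 0 more readily than an abundant one, and the part of depth in these zeros was not tested. The deepest absences were at levels far above the medians of the transcripts listed at 0, as the following transcripts show.

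A small group of transcripts had the widest gaps. comp76250_c0_seq2 had sensitive values of 100.6, 44.45 and 69.23 RPKM, and every tolerant library listed it at 0. On the log2 scale of (RPKM + 1) the gap between the genotypes was 6.67, 5.51 and 6.13. The gap of a transcript at 0 in the tolerant genotype follows the sensitive level alone, so here it was widest without heat and narrowest at 4 h.

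All 4 transcripts of that component were among the 280. Their summed abundance was 167 RPKM in the sensitive control, 128 at 4 h and 153 at 8 h, and 0, 0 and 0.03 RPKM in the tolerant libraries. Within the sum the transcripts moved differently under heat in the sensitive genotype. comp76250_c0_seq2 made up 60.1% of the sum at control, 34.9% at 4 h and 45.3% at 8 h. Another transcript of the component measured 23.45, 57.54 and 38.81 RPKM, so that it was 2.45-fold higher at 4 h than at control. The third stood at 16.72, 15.31 and 17.79 RPKM and varied little. The fourth measured 26.49, 10.21 and 26.94 RPKM and was back at its control level at 8 h. The gap thus narrowed at 4 h for 2 of these transcripts by more than 1 on the log2 scale, widened by more than 1 for another, and changed by -0.12 for the third.

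A second component held transcripts with like courses, and kinship in sequence was not tested. Its leading transcript, comp83556_c0_seq1, had sensitive values of 89.98, 39.75 and 61.87 RPKM and was likewise at 0 throughout the tolerant genotype. All 3 transcripts of this component were among the 280. Its other transcripts measured 22.94, 56.34 and 38.02 RPKM and 16.1, 14.78 and 17.2 RPKM in the sensitive libraries, with at most 0.04 RPKM in any tolerant library. The plain ratio of 4 h to control was 0.442 for the leading transcript of either component. Whether both components draw on the same reads was not tested, so they are not counted as separate evidence of absence. Gaps of 3 or more on the log2 scale in all 3 conditions were found in 11 transcripts of 6 components, and 7 of them belong to these 2 components.

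Further near-copies were found among the 280. All 6 values agreed within 10% (after 0.1 RPKM was added) with those of a member of another component for 103 transcripts, and 30 had a partner with identical values in all 6 libraries. Counted once per set of near-copies, the 280 transcripts came to 228 and the 65 transcripts below 0.1 RPKM in the tolerant genotype to 56. Values proportional within a distance of 0.02 on centred natural logarithms of (RPKM + 1) joined 58 transcripts to a partner and left 251 groups. How reads were shared between like transcripts was not tested.

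The 280 transcripts lay in 206 components, of which 62 held a single transcript and the largest held 93. In 156 components 1 transcript was a member, and the most members in a component was 8. When RPKM was summed over all transcripts of a component, 130 of the 206 sums were still at least 2-fold higher in the sensitive genotype in every condition. These were all 62 components of 1 transcript, for which the sum is the member itself, and 68 of the 144 larger ones. The sum was lower in the sensitive genotype in some condition for 25 of the 144, and in all conditions for 2. The 1105 other transcripts of these components included 690 at 1 RPKM or more in some library, and their median gap was 0.25, -0.02 and 0.59 at control, 4 h and 8 h. The gap was therefore a matter of single transcripts in many components and of the whole component in others.

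Absence of a transcript was not always absence of its component. Of the 32 components with a transcript listed at 0 throughout the tolerant genotype, 15 were at 0 as a whole, while 7 reached 1 RPKM or more in every tolerant library through other transcripts. Over all 206 components, the tolerant sum was below 0.1 RPKM in every library for 19 and at 1 RPKM or more in every library for 88. In 18 of the 144 larger components the sum was at 1 RPKM or more in every tolerant library and the most abundant transcript was a member in all sensitive libraries but a non-member in all tolerant ones.

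**Figure D2:**
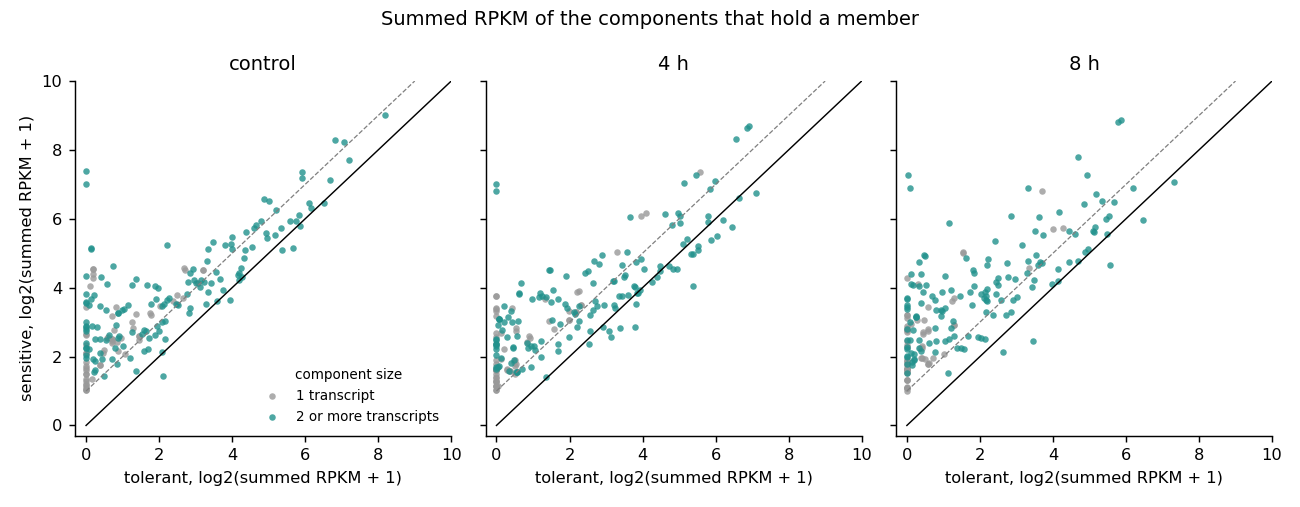
Each point is 1 of the 206 components, placed by its summed RPKM in the tolerant (horizontal) and sensitive (vertical) library of a condition as log2(summed RPKM + 1). The solid line marks equal sums and the dashed line a 2-fold difference, above which 130 components lie in all 3 conditions. Many larger components fall between the lines, and a few below equality.

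Opposite transcripts met in 4 components, which held 9 of the 280 transcripts together with 4 that were at least 2-fold higher in the tolerant genotype in all conditions. This was 2.78% of the 144 larger components, against 0.23% of all 40935 components with 2 or more transcripts, in a comparison that did not match component size or abundance. In the clearest of them, chosen by the abundance of its members, a transcript had sensitive values of 4.57, 7.33 and 8.44 RPKM against tolerant values of 0.04, 0.15 and 0 RPKM. Another member of the component measured 3.68, 4.32 and 8.06 RPKM against 0.02, 0.19 and 0.08 RPKM. Their counterpart gave 1.47, 1.02 and 2.34 RPKM in the sensitive libraries and 6.17, 8.84 and 5.73 RPKM in the tolerant ones. Both genotypes thus had the component in every library, mainly as different transcripts. In another component the members stood at up to 5.7 RPKM in the sensitive and at most 0.16 RPKM in the tolerant libraries, while the counterpart was at 1.22, 4.56 and 4.1 RPKM in the tolerant libraries and at most 0.06 RPKM in the sensitive ones.

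On the scale of (RPKM + 1), heat changed the gap of most transcripts by less than 2-fold. That scale compresses the ratios of low transcripts. With 0.1 RPKM added instead, and 1 RPKM or more in every sensitive library, the rule took 596 transcripts, whose gap at 8 h widened by 1 or more (log2) for 238 and narrowed for 66. The median ratio of sensitive to tolerant was 3.07 at control, 3.01 at 4 h and 3.88 at 8 h, or 1.62, 1.59 and 1.96 on the log2 scale. The gap was widest at 8 h for 152 transcripts, at control for 83 and at 4 h for 45. This order turned with the scaling, with 86 widest at 8 h, 106 at control and 88 at 4 h after median-of-ratios scaling, and 88, 107 and 85 after upper-quartile scaling of the same transcripts. The scaled median gaps were close to each other, at 1.604, 1.65 and 1.67 (median-of-ratios) and 1.67, 1.72 and 1.75 (upper-quartile). From control to 4 h it widened by 1 or more on the log2 scale for 7 transcripts and narrowed by as much for 37. From control to 8 h it widened for 33 and narrowed for 19. These counts include near-copies. Counted by sets of near-copies, 5 sets held a transcript that widened at 4 h and 27 held one that narrowed. At 8 h 21 sets held one that widened and 15 held one that narrowed. The gap may not fall below 1 in any condition by the rule, so a narrowing by 1 was open to the 97 transcripts with a control gap of 2 or more. Of these 97, the gap narrowed by 1 or more for 37 at 4 h and for 19 at 8 h.

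These counts have to be read against the shift of all transcripts between the same libraries. Over transcripts at 1 RPKM or more in every sensitive library, which includes all 280 by the rule, the gap narrowed by 1 or more at 4 h for 7.18% and widened for 5.43%, against 13.2% and 2.5% of the 280. At 8 h it widened for 23.8% and narrowed for 5.96%, against 11.8% and 6.79%. With the looser requirement of 1 RPKM in any of the 4 libraries compared, the background at 4 h was 11.1% narrowed and 6.05% widened, and at 8 h 18.0% widened and 10.3% narrowed. The share of the 280 that widened at 8 h was therefore below either background. However, 190 of the 280 stayed below 1 RPKM in every tolerant library. For these a tolerant fall alone could not widen the gap by 1 on this scale, so nothing is read from the lower share. The control gap is part of the rule and also the starting point of every change. Its median was 1.62 in the 280 and 0.12 over transcripts at 1 RPKM or more in every sensitive library. The part of this choice in the narrowing and widening at 4 h was not tested, so nothing is read from the 4 h shares either. The median of the 280 single changes was -0.08 at 4 h and 0.23 at 8 h, and over the transcripts at 1 RPKM or more in every sensitive library it was -0.18 and 0.37. The balance at 8 h turned with the scaling. With the same 280 transcripts, the median change at 8 h was -0.05 after median-of-ratios scaling and -0.03 after upper-quartile scaling, and 134 and 135 of them were wider at 8 h in place of 179. Widening by 1 or more was then seen for 20 and 22 transcripts and narrowing for 24 and 23. These scalings shift the log2 ratio of sensitive to tolerant RPKM at 8 h by -0.65 and -0.32.

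**Figure D3:**
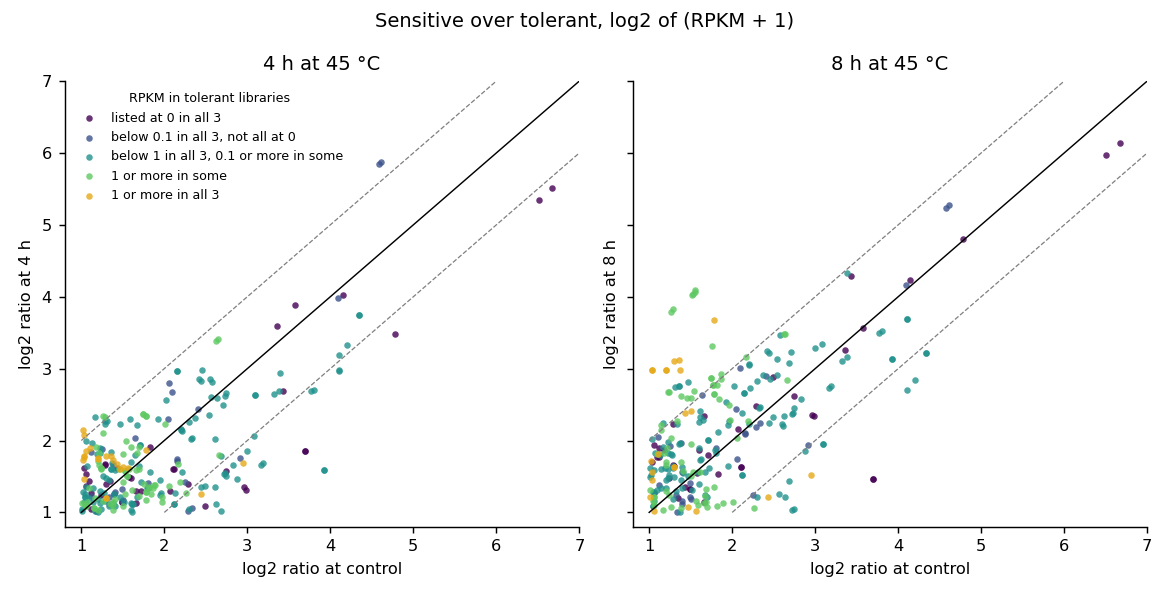
Each point is a transcript, with its gap (log2 of the ratio of sensitive to tolerant RPKM + 1) at control on the horizontal axis and at 4 h (left) or 8 h (right) on the vertical axis, coloured by its RPKM in the tolerant libraries. The solid line marks an unchanged gap and the dashed lines a change of 1. At 8 h 33 transcripts lie on or above the upper dashed line and 19 on or below the lower one.

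Whether heat widened or narrowed the gap went with presence in the tolerant genotype. Among the 22 transcripts present in every tolerant library the median change was 0.42 at 4 h and 0.71 at 8 h, and the gap was wider than at control for 18 and 17 of them. The 22 include near-copies, so 18 and 17 are not counts of separate cases. Over all transcripts at 1 RPKM or more in every sensitive library the median change was -0.18 and 0.37. The other scalings shift the log2 ratio at 8 h by -0.65 and -0.32, and class medians after scaling are not given here. Among the 68 present in some tolerant libraries it was -0.04 and 0.51. Among the 38 listed at 0 it was -0.25 and 0.05, and none of these widened by 1 or more at either time, while 9 narrowed by as much at 4 h and 2 at 8 h. The 125 transcripts between 0.1 and 1 RPKM held 23 of the 37 that narrowed at 4 h. The class was made from the tolerant values that also enter the gap, so this order is a description.

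**Figure D4:**
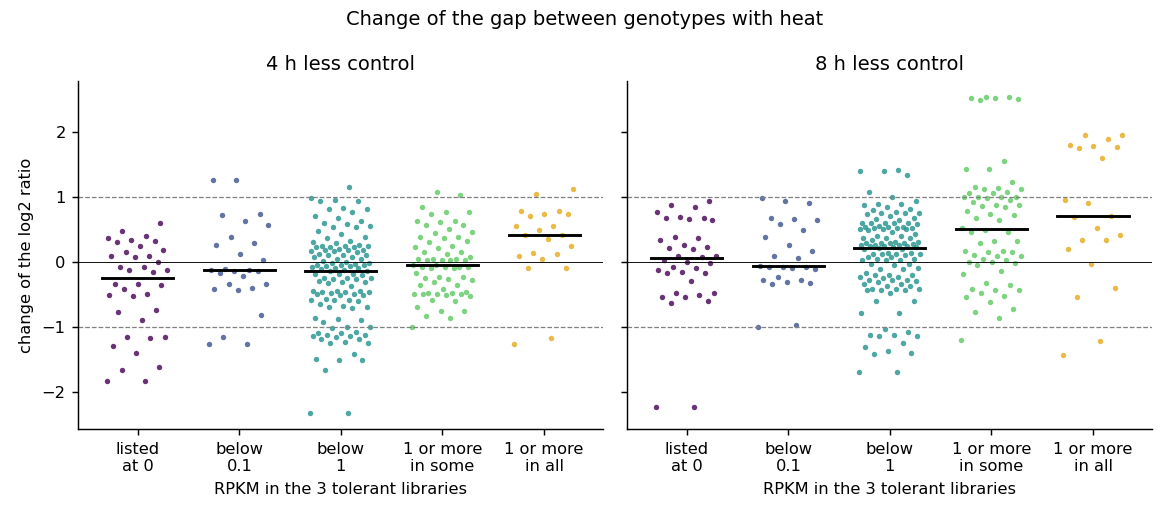
Each point is a transcript, placed by the change of its gap (log2 ratio of sensitive to tolerant RPKM + 1) from control to 4 h (left) and to 8 h (right), in 5 classes of tolerant RPKM. Black bars are class medians and dashed lines mark a change of 1. At 8 h the medians run from -0.05 and 0.05 in the classes below 0.1 RPKM to 0.71 in the class at 1 RPKM or more in all tolerant libraries.

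The genotypes moved in different ways behind these changes. Of the 33 transcripts whose gap widened by 1 or more at 8 h, 16 stood at least 2-fold below control in the tolerant genotype, and 4 of those did so in the sensitive genotype too. A further 14 were at least 2-fold higher in the sensitive genotype than in its control, and 7 of those were also higher in the tolerant genotype, by less. In 25 of the 33 the tolerant control stood at 1 RPKM or more. The 33 lie in 21 sets of near-copies, so these are not counts of separate cases. Of the 19 that narrowed at 8 h, 15 were at least 2-fold lower in the sensitive genotype than in its control and 1 was higher in the tolerant genotype. Of the 37 that narrowed at 4 h, 22 were lower in the sensitive genotype and 0 were higher in the tolerant one. Only 2 of the 37 reached 1 RPKM in any tolerant library. The others could not rise 2-fold there on this scale, so nothing is read from the 0. The same limit held for most of the 19. None of the 280 moved at least 2-fold in opposite directions in the genotypes at either time, against 0.481% at 4 h and 1.06% at 8 h of the transcripts at 1 RPKM or more in every sensitive library. With 190 of the 280 below 1 RPKM throughout the tolerant genotype, most could not move 2-fold there on this scale, and nothing is read from the count.

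The widest change at 8 h, among transcripts at 10 RPKM or more in every sensitive library, came from a drop in the tolerant genotype. comp126959_c1_seq3 had tolerant values of 5.94, 9.85 and 0.49 RPKM and sensitive values of 19.37, 29.96 and 24.51 RPKM. The plain ratio of sensitive to tolerant was 3.26 at control, 3.04 at 4 h and 50.02 at 8 h. Its gap changed by -0.04 at 4 h and by 2.54 at 8 h on the log2 scale of (RPKM + 1). comp105451_c0_seq2, a near-copy from another component, had tolerant values of 5.83, 9.67 and 0.49 RPKM and sensitive values of 19.04, 29.42 and 24.06 RPKM. Both genotypes were higher at 4 h than at control, and they parted between 4 and 8 h.

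Another transcript of each of these components was also among the 280, with a like profile. Of the component of comp126959_c1_seq3, 2 further transcripts did not meet the rule. One measured 8.84, 44.17 and 7.57 RPKM in the sensitive libraries and 6.31, 10.98 and 4.81 RPKM in the tolerant ones, so that it was 4.997-fold higher at 4 h than at control in the sensitive genotype and near its control level at 8 h in both. The other measured 11.06, 47.42 and 7.95 RPKM in the sensitive libraries and 7.87, 11.76 and 5.44 RPKM in the tolerant ones. Both thus fell from 4 to 8 h in the tolerant genotype, but not to below 1 RPKM as comp126959_c1_seq3 did. A fall to below 1 RPKM was seen in the transcript of the component of comp105451_c0_seq2 that did not meet the rule. Its tolerant values were 2.76, 3.62 and 0.13 RPKM and its sensitive values 4.19, 8.04 and 8.07 RPKM.

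**Figure D5:**
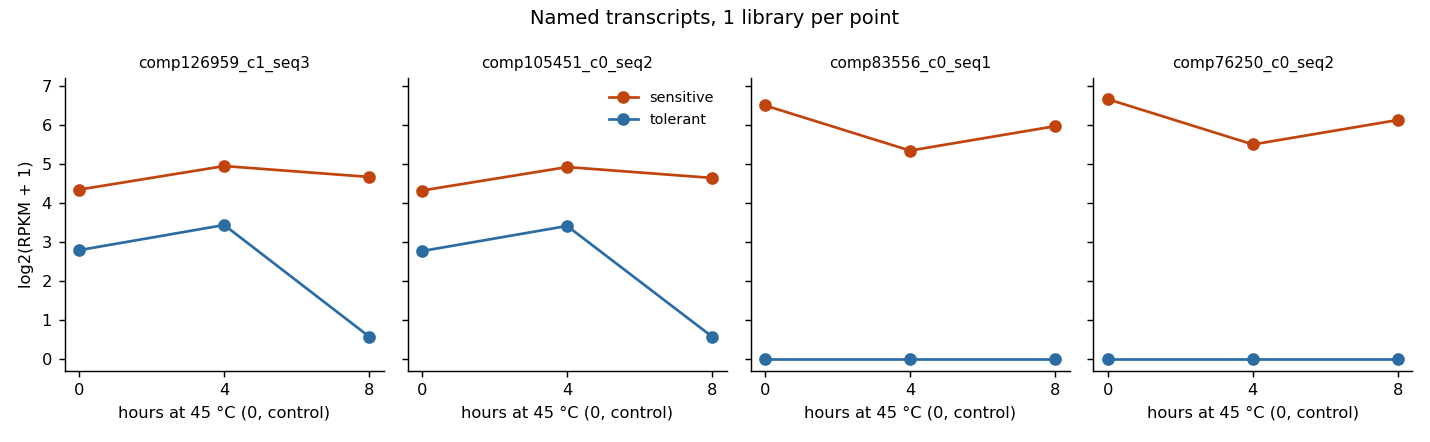
Abundance of the 4 transcripts given by identifier as log2(RPKM + 1) on the vertical axis against hours at 45 °C, with 0 for the control, in the sensitive (orange) and tolerant (blue) genotype. Every point is 1 library. The left panels show the drop of the tolerant genotype at 8 h from 9.85 and 9.67 to 0.49 RPKM, and the right panels transcripts listed at 0 in all tolerant libraries.

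Abundance was ranked by the mean over the sensitive libraries. That mean includes the heated libraries, so the ranking favours transcripts raised by heat. By this mean, the 4 most abundant of the 280 were strongly heat-induced in both genotypes and more so in the sensitive one. The highest had sensitive values of 27.47, 223.21 and 244.63 RPKM and tolerant values of 12.9, 64.38 and 30.06 RPKM. In the sensitive genotype it was 8.13-fold and 8.91-fold higher than at control, and in the tolerant genotype 4.99-fold and 2.33-fold. The plain ratio between the genotypes went from 2.13 at control to 3.47 and 8.14. The next 3 by abundance had the same course, with sensitive values of 26.24 to 27.68 RPKM at control and 210.77 to 233.74 RPKM at 8 h, and they lie in the same component or in 1 other. These 4 transcripts entered the set with control ratios (of RPKM + 1) of 2.05 to 2.30, close to the limit. The other scalings shift the log2 ratio of sensitive to tolerant RPKM at control by -0.18 (median-of-ratios) and -0.11 (upper-quartile). That takes the lowest of these ratios below 2, so not all 4 transcripts meet the rule after scaling.

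Another set of 3 like transcripts, of 2 components, peaked at 4 h. In the leading one the sensitive values were 13.15, 166.28 and 114.41 RPKM and the tolerant values 4.52, 47.7 and 12.26 RPKM. At 4 h the genotypes had changed by similar folds, 12.6 in the sensitive and 10.6 in the tolerant genotype. At 8 h it was still 8.70-fold above control in the sensitive genotype but 2.71-fold in the tolerant one, so that the plain ratio between them went from 3.49 at 4 h to 9.33 at 8 h.

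The fifth most abundant transcript was not induced. Its sensitive values were 133.46, 86.25 and 92.19 RPKM and its tolerant values 38.09, 22.79 and 6.29 RPKM. Up to 4 h both genotypes were lower than at control by a like fold, 1.55 in the sensitive and 1.67 in the tolerant genotype. At 8 h the tolerant level was 6.06-fold below control and the sensitive level 1.45-fold, and the plain ratio between them reached 14.7. The 8 most abundant transcripts therefore all had their widest gap at 8 h. All but the fifth had a near-copy among the 8, so they are not separate cases, and only the fifth was lowered by heat. The gap was widest at 8 h for 152 of all 280, an order that turned with the scaling. The share of all transcripts past the 2-fold limit was likewise largest at 8 h, at 20.0% against 3.23% at control and 3.2% at 4 h.

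Some other courses, picked after their values were seen, show the range. The transcript highest in the sensitive control measured 220.7, 12.99 and 9.63 RPKM there and 102.31, 2.77 and 2.02 RPKM in the tolerant libraries, so that the levels after heat were 16.99-fold to 50.65-fold below control while the plain ratio of the genotypes stayed at 2.16 or more. A transcript with a near-copy in another component was listed at 0 in the tolerant control and 4 h libraries and at 1.92 RPKM at 8 h, while it measured 5.24, 9.61 and 31.7 RPKM in the sensitive ones. Of the 135 members whose tolerant control was below 0.1 RPKM, 2 reached 1 RPKM at 4 h and 5 at 8 h, against 11.4% and 19.1% of all transcripts below 0.1 RPKM there. The rule limits tolerant values after heat, so nothing is read from this difference. The strongest narrowing at 8 h belonged to 2 transcripts with identical values, listed at 0 throughout the tolerant genotype and at 11.92, 2.63 and 1.76 RPKM in the sensitive one, where the gap changed by -2.23.

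Compared with their own controls, more of the 280 transcripts were lower than higher after heat. The sensitive values of all 3 conditions also enter the rule, and their part in this was not tested. With 0.1 RPKM added and no filter the order turned in the sensitive genotype at 8 h, to 662 higher and 569 lower of 3749 transcripts. In the sensitive genotype 48 (17.1%) were at least 2-fold lower at 4 h and 22 (7.86%) higher, against 10.8% and 12.9% of all transcripts with 1 RPKM or more in either library compared. At 8 h 47 (16.8%) were lower and 27 (9.64%) higher, against 8.25% and 18.8%. With the background held to 1 RPKM or more in every sensitive library the shares were 7.8% lower and 9.13% higher at 4 h, and 7.14% and 10.2% at 8 h. Over the 3 sensitive libraries 171 of the 280 (61.1%) stayed within 2-fold, against 76.2% of that background.

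In the tolerant genotype, 83 of the 280 had 1 RPKM or more at control or 4 h and 82 at control or 8 h. At 4 h 21 of the 83 (25.3%) were at least 2-fold lower than at control and 15 (18.1%) higher, against 9.15% and 20.7% of all transcripts. At 8 h 41 of the 82 were lower and 16 (19.5%) higher, against 20.8% and 27.5%. The rule asks for low tolerant values after heat, which favours such falls, and the size of that part was not tested.

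Fewer of the set reached 1 RPKM in the tolerant genotype after heat than at control. Transcripts at 1 RPKM or more in it numbered 73 at control, 60 at 4 h and 31 at 8 h. Of the 73, 23 were below 1 RPKM at 4 h and 51 (69.9%) at 8 h, 13 of them below 0.1 RPKM. Among all transcripts at 1 RPKM or more in the tolerant control, 20.8% were below 1 RPKM at 4 h and 41.3% at 8 h. Held to 1 to 10 RPKM at control, 48 of 64 members were below 1 RPKM at 8 h, against 44.9% of all transcripts. The rule favours low tolerant values after heat, so nothing is read from these differences. Of the 68 transcripts present in some tolerant libraries, 23 reached 1 RPKM at control alone, 28 at control and 4 h, 8 at 4 h alone, 7 at 8 h alone and 2 at 4 and 8 h.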

How the data were processed

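Leaf RNA of 2 cotton genotypes was sequenced in 6 libraries, 1 for each of 3 conditions in a genotype. Per the labels' protocols, RNA was extracted by a modified CTAB method with column clean-up and libraries followed standard Illumina protocols. The authors deposited RPKM values with 2 decimals per transcript, per the file headers. The assembler, aligner and counting program were not given in these sources. From these values log2 ratios of (RPKM + 1) were computed for all transcripts with Python 3.11.15, numpy 2.4.6 and pandas 2.3.3. Limits were inclusive, and the selection was tested on simulated data. Relative depth came from the most frequent ratio of low values (0.3 to 1 RPKM) between libraries, and the 15 pairs of libraries agreed within 0.005 on the log2 scale. With 1 library per group no p-value is given. Transcripts given by identifier were those with the 2 highest and 2 lowest changes of the gap at 8 h among the 26 at 10 RPKM or more in all sensitive libraries. Others described were ranked by abundance, by smallest ratio, by class or by counterpart, except where picked afterwards. The set, its rule and these lists were chosen with earlier results of these data known. Other scalings, pseudocounts, filters and limits were tried. Counts of near-copies, of component sums, of backgrounds at 1 RPKM in every sensitive library and of scaled values with members held were added after seeing the data.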

Additional observations from a re-analysis of the deposited data

How the results depend on the processing

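Of the 280 transcripts, 229 were chosen under all 3 scalings (deposited, median-of-ratios and upper-quartile), which gave 250 and 286 transcripts in the scaled data. Median-of-ratios scaling gave 11 widened at 4 h and, in the sensitive genotype, 14 higher than control at 4 h and 15 at 8 h, and upper-quartile scaling gave 16 higher at 8 h. With the members held, these scalings gave 16 and 14 widened at 4 h, and median-of-ratios scaling 20 widened at 8 h. The pseudocount mattered most, since 1 RPKM hides ratios of low transcripts. A pseudocount of 0.1 with 1 RPKM or more in every sensitive library gave 596 transcripts, of which 75 widened and 125 narrowed at 4 h, and 238 widened and 66 narrowed at 8 h. In the sensitive genotype 63 of them were higher and 128 lower than control at 4 h, and 88 and 115 at 8 h. Without that filter there were 3749, of which 1544 were below 0.1 RPKM in every tolerant library, with 550 widened and 629 narrowed at 4 h, 1252 and 431 at 8 h, and 24 components with a counterpart. Higher and lower in the sensitive genotype were then 387 and 643 at 4 h and 662 and 569 at 8 h, an order at 8 h opposite to that of the 280. A minimum of 5 RPKM in every sensitive library left 69 transcripts, 10 of them below 0.1 RPKM in the tolerant genotype, with 4 widened and 10 narrowed at 4 h, 20 and 6 at 8 h, and 0 components with a counterpart at the same minimum. Of the 69, 12 were higher and 17 lower at 4 h and 12 and 16 at 8 h in the sensitive genotype. With 1 transcript per component 23 narrowed at 4 h. A limit of 0.5 RPKM for absence gave 153 transcripts, and a limit of 0.5 for the gap gave 45 widened and 69 narrowed at 4 h, and 101 and 36 at 8 h. No paired analysis was possible because the labels carry no replicate numbers to pair by and the results come from no test. The libraries are matched by condition in every ratio of the genotypes. Values under 1 RPKM rest on few reads of unknown number, so absence here means no value at this depth.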
